A study of Mus musculus with 4 samples.

Results

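The collagen gene superfamily was followed across 4 mouse RNA samples, each hybridised to 1 Agilent single-colour (Cy3) array. Its members were all non-control probes whose gene name in the files had the form of a collagen alpha chain symbol, from Col1a1 to Col28a1. This gave 43 genes with 68 probes on 77 spots, of 30222 gene names, 39429 probes and 43020 spots in all. The rule reads gene names and no measured value, while the family itself was picked with earlier results of these data known. Of the 68 probes, 60 were matched to a RefSeq record by accession, and all 60 carried the same symbol there. RefSeq lists 44 mouse symbols of this form. The remaining one, Col26a1, is on the array under its older name Emid2, so it was not a member. Its 2 probes are given once below.

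The transfected tissue was described as ligament-like and came from mesenchymal stem cells transfected with a mouse gene called only A in the labels, carried by the vector pCAGGS. Its parent was untransfected mesenchymal stem cells, multipotent connective tissue precursors that came from mouse embryos. Both cell samples had the C3H background. The transgenic ligament was from mice carrying the same pCAGGS construct with A, and the other ligament was from wild type mice, both C57BL/6J. pCAGGS drives expression in most mammalian cell types. The labels used here do not give the age or sex of the mice, the ligament taken, or whether animals were pooled. The study's question was whether A can make ligament out of stem cells, and how similar the extracellular matrix of the samples is. With a single array in every group, there is no replicate check, p-value or SD for any difference. Wherever cells are set against ligament, strain, origin, culture and tissue differ together and cannot be told apart.

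Collagens are secreted proteins built from 3 chains wound into a triple helix. The helix needs glycine, the smallest amino acid, at the start of each Gly-X-Y repeat. Fibrillar collagens form the rope-like fibrils that carry tension in ligament, tendon, bone and skin. Other classes form the sheet under epithelia and around muscle fibres and vessels, coat or link fibrils, form beaded filaments around cells, anchor epidermis to dermis, or cross the cell membrane. Ligament is known for a matrix dominated by type I collagen with type III and small amounts of type V.

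The repeat can be read in probes that lie in the triple helix coding sequence. Of the 68 collagen probes, 4 (5.88%) held at least 4 glycine codons (GGN) in a row at a spacing of 9 bases, against 35 of the 39361 other probes (0.0889%). The 4 are shown because they carry the signature of the family in the array's own sequence. They lie on mm9, the build in the file headers, at chr15:55347733-55347792 for Col14a1, chr4:47283786-47283845 for Col15a1, chr4:129756457-129756516 for Col16a1 and chr3:130270497-130270556 for Col25a1, all on the plus strand. Capitals mark the glycine codons of the run, and each sequence reads 5′ to 3′ as in the array design.
Col14a1: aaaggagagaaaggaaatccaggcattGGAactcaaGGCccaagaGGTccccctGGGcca
Col15a1: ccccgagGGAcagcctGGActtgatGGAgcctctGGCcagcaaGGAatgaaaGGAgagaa
Col16a1: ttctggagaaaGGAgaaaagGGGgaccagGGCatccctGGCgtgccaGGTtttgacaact
Col25a1: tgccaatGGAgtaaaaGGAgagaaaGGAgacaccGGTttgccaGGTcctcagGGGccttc

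Levels are log2 of the processed spot intensity, less the 75th percentile of that array, so 0 is that percentile and 1 unit is a 2-fold step. The 75th percentile was 2272 in the transfected tissue, 1165 in stem cells, 303 in transgenic ligament and 285 in wild type ligament, in scanner intensity units. Between 49.0% and 56.3% of spots per array carried the scanner software's flag for being well above background, and no spot was saturated. The software's own spot error for a collagen probe was at least 0.14 on the log2 scale. A difference between 2 arrays therefore carries an error of at least 0.20, which covers the spot and not the sample. Only Col4a1 had 10 spots, and their SD was 0.04 in tissue, 0.10 in stem cells, 0.04 in transgenic and 0.04 in wild type ligament. A gene with several probes is represented by the one with the highest mean level over the arrays.

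Markers were set beside the labels, as the sum of linear levels over a list, where 1 is the 75th percentile. The tendon and ligament list (Tnmd, Scx, Mkx, Fmod, Comp, Thbs4, Kera) summed to 2.10 in transfected tissue with 6 of 7 well above background, and to 3.25 in stem cells with 6 of 7. It summed to 42.9 in transgenic ligament with 7 of 7 and to 12.3 in wild type ligament with 6 of 7. Its members did not all follow the sum. At 2-fold, 2 of 7 were higher in tissue than in wild type ligament (all genes 20.6%) and 4 lower (all genes 35.6%). Tnmd had a level of −1.61 in tissue and −2.89 in wild type ligament. Mkx had −1.25 in tissue and was not well above background in wild type ligament (−5.36). Over the 4 of 5 skeletal muscle markers with a usable spot on every array (Acta1, Ckm, Tnnc2 and Mylpf), the sum was 2596 in transgenic and 3363 in wild type ligament, against 0.61 in tissue and 1.82 in stem cells. The spot of Myh4 was left out as an outlier on the wild type array. Epidermis markers summed to 159 in transgenic and 28.5 in wild type ligament, against 0.55 in tissue and 0.76 in stem cells. Bone markers summed to 186 in transgenic and 46.3 in wild type ligament, against 1.04 in tissue and 0.25 in stem cells. Blood markers summed to 165 in transgenic and 804 in wild type ligament, against 0.085 in tissue and 0.30 in stem cells. The sum of mesenchymal stromal markers ran the other way, with 90.7 in tissue and 141 in stem cells, against 12.01 in transgenic and 9.94 in wild type ligament. Nt5e went against this sum. It had −1.43 in transgenic and −2.95 in wild type ligament, and was not well above background in tissue (−7.65) or stem cells (−7.88). Cd44 was lower in tissue (−0.66) than in transgenic (0.77) or wild type ligament (0.33), and had 1.39 in stem cells. Cartilage markers summed to 4.84 in tissue and 4.83 in stem cells. They summed to 4.26 in transgenic ligament, where Matn1 and Lect1 were not well above background, and to 0.71 in wild type ligament, where 6 of 7 were not. In these bulk samples, fewer cells of a type and less RNA per cell cannot be told apart.

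Of the 43 genes, 31 were well above background in transfected tissue, 32 in stem cells, 32 in transgenic ligament and 30 in wild type ligament. On all 4 arrays 26 genes were, and on none 7: Col4a3, Col6a4, Col6a5, Col6a6, Col13a1, Col19a1 and Col25a1. In the cell samples but in neither ligament were Col23a1, Col27a1 and Col28a1, and in both ligaments but in neither cell sample were Col8a1 and Col22a1. Col24a1 was so marked in transgenic ligament alone, and Col9a3 in stem cells alone. Col20a1 was missing from wild type ligament, Col17a1 from the tissue, and the probe used for Col4a4 from stem cells. These patterns were not counted over all genes, and they depend on the floor of each array. The faintest level well above background was −5.71 in tissue and −5.79 in stem cells, but −3.90 in transgenic and −3.41 in wild type ligament. The levels of Col28a1 in tissue (−5.24) and of Col9a3 in stem cells (−4.84) lay below the floors of the ligament arrays. Over all 68 probes, collagens made 0.352% of the summed processed signal in tissue, 0.328% in stem cells, 0.150% in transgenic ligament and 0.0996% in wild type ligament. Col1a1, Col1a2 and Col3a1 supplied most of it in every sample, with 0.223% of the signal in tissue, 0.209% in stem cells, 0.132% in transgenic and 0.0889% in wild type ligament.

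**Figure D1:**
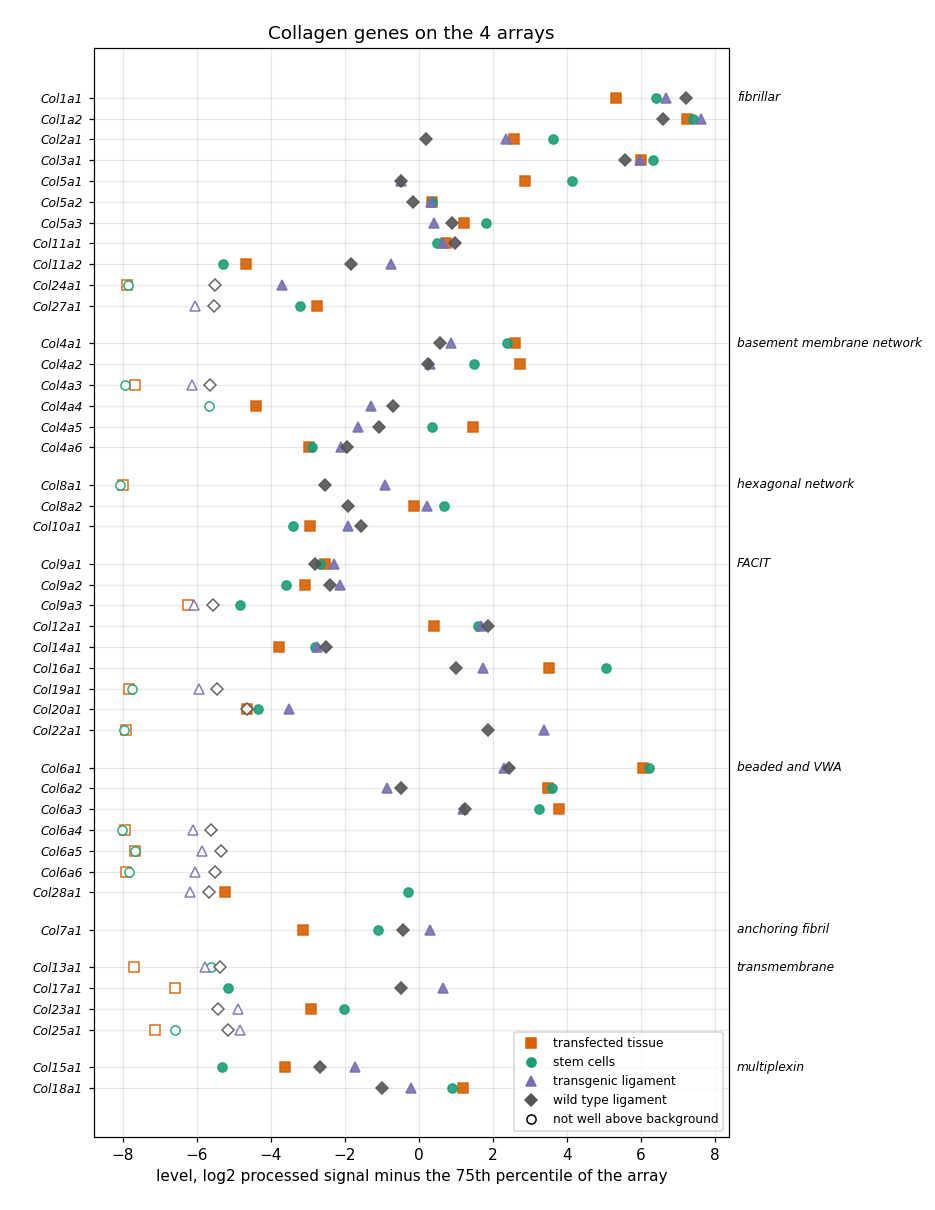
Level (log2 processed signal less the array's 75th percentile, x axis) of each of the 43 collagen genes (rows, grouped by class) in transfected tissue, stem cells, transgenic ligament and wild type ligament; open symbols were not well above background. The type VI chains separate the cell samples from the ligaments, Col22a1 and Col8a1 are filled in the ligaments alone, and the symbols of a pair of cell samples or of a pair of ligaments mostly lie close together.

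A gene was compared where at least 1 of the 2 arrays was well above background, and called higher or lower from a 2-fold difference. Where the dimmer array was not, the fold is only a bound: the bright array was set against the dim probe's signal or against the faintest well-measured signal of the dim array, whichever was greater. In transfected tissue against stem cells 4 of 33 collagen genes were higher (background over all genes 10.9%) and 7 were lower (background 13.3%), 24.2% of all 17808 genes being called either way. The median collagen difference was −0.17, against −0.09 over all genes, and it turned to 0.10 with quantile normalization and 0.11 in the deposited value table. In transgenic against wild type ligament 7 of 32 collagen genes were higher (background 6.1%) and 0 were lower (background 6.82%), 12.9% of all 16892 genes being called either way. The median was 0.35, or 0.16 with dim genes at their bound, against −0.01 over all genes.

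In wild type ligament against stem cells 8 of 35 collagen genes were higher (background 33.7%), 3 of them as bounds, and 13 were lower (background 21.9%), 2 as bounds. Of all 18529 genes compared, 55.6% were called either way. The median was −0.72, or −0.18 with bounds, against 0.20 over all genes, and it was 0.08 after normexp background correction. In transfected tissue against wild type ligament 11 of 34 were higher (background 20.6%) and 11 were lower (background 35.6%), 3 as bounds, with 56.2% of all 18372 genes called either way. Quantile normalization gave 15 higher and 7 lower (55.7% of all genes called either way), and the authors' deposited values gave 16 higher and 7 lower (55.9%). The median was 0.37 against −0.30 over all genes, and −0.35 after normexp correction. Over all genes, quantile normalization moved the median to −0.27 for wild type ligament against stem cells, and to 0.27 for tissue against wild type ligament. Each array except that of transgenic ligament enters more than 1 comparison, so the comparisons are not independent of each other.

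The samples fell into pairs. Over the 36 collagen genes well above background anywhere, Pearson's r was 0.96 between tissue and stem cells and 0.97 between transgenic and wild type ligament, and 0.61 to 0.72 between a cell sample and a ligament. Over the 19839 genes of the same kind r was 0.95, 0.96 and 0.71 to 0.72. Both sets hold genes that were dim on some arrays. Over the 26 collagen genes well above background on all arrays r was 0.97, 0.96 and 0.79 to 0.83, with no value for all genes of that kind. These correlations run across genes, which are not replicates. Of the 26 genes measured on all arrays, both cell samples were above both ligaments for 13 and both ligaments were above both cell samples for 9. Of all 12982 genes measured on all arrays, these orders held for 4259 (32.8%) and 5752 (44.3%). The tissue lay nearer to wild type ligament than stem cells did for 15 of 26 collagen genes (57.7%), against 6344 of 12982 over all genes (48.9%), a comparison in which both distances share the wild type ligament array. By more than 0.5 on the log2 scale, 8 of 26 collagen genes lay nearer and 7 farther, against 2792 and 2872 of 12982 over all genes.

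**Figure D2:**
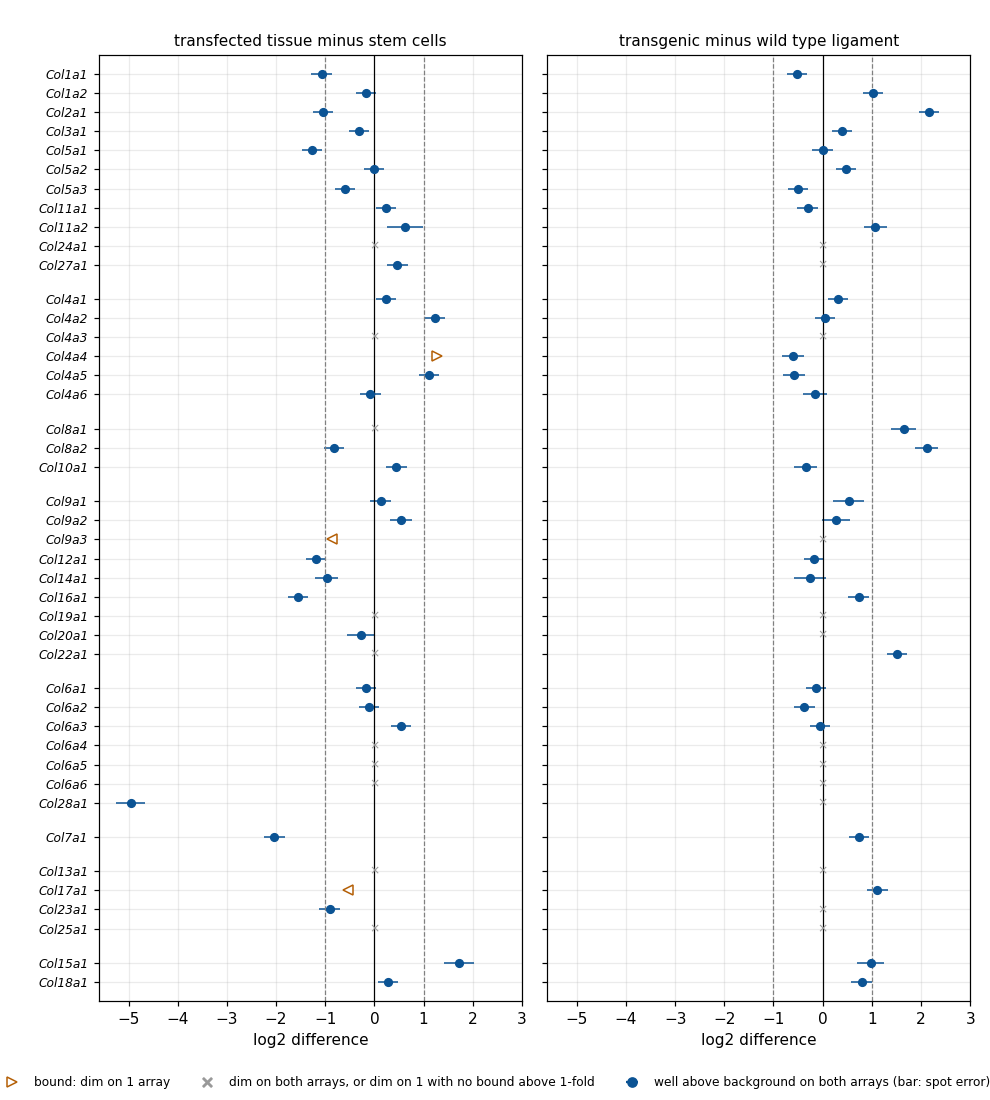
Log2 difference of each collagen gene (rows in the order of the level plot) in transfected tissue minus stem cells (left) and transgenic minus wild type ligament (right); bars are the scanner software's spot error, open triangles are bounds, crosses have no measurable difference and dashed lines mark 2-fold. Left, Col28a1 and Col7a1 lie lowest and Col15a1 highest; right, Col2a1 and Col8a2 lie highest and no point passes the lower line.

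The fibrillar collagens were the brightest class, with summed linear levels of 276 in tissue, 373 in stem cells, 375 in transgenic ligament and 301 in wild type ligament. In tissue against stem cells 0 of 10 were higher (background 10.9%) and 3 lower (background 13.3%), and their median of −0.24 turned to 0.12 under quantile normalization and in the deposited table. In transgenic against wild type ligament 3 of 10 were higher (background 6.1%) and 0 lower (background 6.82%) and their median was 0.44, which became 0.20 once Col24a1, dim in wild type ligament, was set at its bound. In wild type ligament against stem cells 1 of 10 was higher (background 33.7%) and 2 lower (background 21.9%). In tissue against wild type ligament 2 of 10 were higher (background 20.6%) and 2 lower (background 35.6%).

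Type I collagen, the main fibril protein of ligament, is a trimer of Col1a1 and Col1a2 chains. Col1a1 had a level of 5.34 in tissue and 6.41 in stem cells, and 6.70 in transgenic and 7.22 in wild type ligament. The tissue was the lowest sample for this gene, 2.11-fold below stem cells (log2 −1.07) and 3.68-fold below wild type ligament (log2 −1.88). These calls depend on the scaling: with quantile normalization the log2 differences were −0.53 and −0.33, both under 2-fold, and wild type ligament against stem cells went to −0.20, against 0.81 here. Col1a2 had a level of 7.25 in tissue and 7.42 in stem cells, and 7.62 in transgenic and 6.60 in wild type ligament. It was 2.03-fold higher in transgenic than in wild type ligament (log2 1.02) and differed by −0.18 between tissue and stem cells, where quantile normalization gave 0.93. Between the ligaments, 4 of 5 bone, 6 of 7 tendon and ligament and 6 of 6 epidermis markers were higher in transgenic ligament (background 6.1%). In these lists 0 were lower (background 6.82%). Col1a2 went the same way while Col1a1 differed by −0.52, and the part of these markers was not tested. In tissue against wild type ligament Col1a2 differed by 0.64, and by 2.82 with quantile normalization.

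The chains of type I collagen differed from each other in every comparison. In transgenic against wild type ligament Col1a1 differed by −0.52 and Col1a2 by 1.02, a gap of 1.54 log2 units with an error of 0.29 from the spots. This gap lay between 1.26 and 1.56 under all alternatives, which do not change the order of the chains. In tissue against stem cells the gap was 0.90, between wild type ligament and stem cells 1.63, and in tissue against wild type ligament 2.52. Each chain is measured by 1 probe on 1 spot, at chr11:94813115-94813174 (plus strand) for Col1a1 and chr6:4490619-4490678 (plus strand) for Col1a2, so a probe effect was not tested.

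Type III collagen, a homotrimer of Col3a1 found with type I in extensible tissue, had levels of 6.02 in tissue and 6.33 in stem cells, and 5.98 in transgenic and 5.59 in wild type ligament. The 4 values lay within 2-fold of each other, and with quantile normalization the tissue against stem cell difference turned from −0.31 to 0.40. Type II collagen, the fibril protein of cartilage, is a homotrimer of Col2a1. Its level was 2.58 in tissue and 3.62 in stem cells, and 2.37 in transgenic and 0.21 in wild type ligament. Wild type ligament was thus far below the other samples, by 10.6-fold against stem cells (log2 −3.41). Transgenic ligament was 4.46-fold higher than wild type (log2 2.16), the largest difference of a collagen gene between the ligaments. Tissue was 2.06-fold lower than stem cells (log2 −1.04), which fell under 2-fold with 4 alternatives, at −0.88 to −0.99. Between the ligaments, 2 of 5 cartilage markers compared were higher in transgenic ligament (background 6.1%), 1 of them as a bound, and 0 lower (background 6.82%). In wild type ligament against stem cells 1 of 5 cartilage markers was lower, as a bound (background 21.9%). In that comparison 0 were higher (background 33.7%) and 4 lay within 2-fold. The part of these markers in the Col2a1 differences was not tested. Sox9, the cartilage transcription factor that activates Col2a1, had a level of 1.87 in tissue and 2.03 in stem cells. It had −2.69 in transgenic ligament and was not well above background in wild type ligament (−3.72).

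Type V collagen sits inside type I fibrils and limits their width. Col5a1, present in nearly all type V trimers, had a level of 2.86 in tissue and 4.14 in stem cells, and −0.47 in transgenic and −0.48 in wild type ligament. The ligaments were equal for this gene within the spot error, and wild type ligament was 24.5-fold below stem cells (log2 −4.61). Tissue was 2.41-fold below stem cells and 10.1-fold above wild type ligament. Its partner chain Col5a2 had 0.36 in tissue and 0.36 in stem cells, and 0.32 in transgenic and −0.16 in wild type ligament. Col5a2 therefore hardly differed where Col5a1 differed most, and the gap between the chains was 4.09 log2 units (17.0-fold) between wild type ligament and stem cells. Across the alternatives this gap stayed between 3.82 and 4.25. Col5a3, a chain of a rarer type V form, had 1.23 in tissue and 1.82 in stem cells, and 0.40 in transgenic and 0.91 in wild type ligament, with no call in any comparison.

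Type XI collagen is the counterpart of type V in cartilage fibrils. Col11a1 was steady, with 0.74 in tissue and 0.50 in stem cells, and 0.67 in transgenic and 0.98 in wild type ligament. Col11a2 had −4.66 in tissue and −5.28 in stem cells, and −0.76 in transgenic and −1.83 in wild type ligament. Both ligaments were above both cell samples for Col11a2, wild type ligament by 10.98-fold against stem cells, and transgenic was 2.10-fold above wild type ligament, which normexp correction reduced to 0.54 on the log2 scale. Col24a1, a fibrillar chain tied to developing bone, was not well above background in tissue (−7.90), stem cells (−7.86) or wild type ligament (−5.52), and had −3.69 in transgenic ligament, too near the floor for a fold. Col27a1, a fibrillar chain of cartilage, had −2.76 in tissue and −3.23 in stem cells, and was not well above background in transgenic (−6.05) or wild type ligament (−5.55).

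The basement membrane network is made by type IV collagen, the sheet that underlies epithelia and surrounds muscle fibres and vessels. In tissue against stem cells 3 of 5 type IV genes compared were higher (background 10.9%), 1 of them as a bound, and 0 lower (background 13.3%). In the same comparison 3 of 4 adipocyte markers (all 3 as bounds), 2 of 3 nerve (1 as a bound), 2 of 4 endothelium and 2 of 4 bone markers (1 as a bound) were higher. None in these lists was lower. Other lists went the other way, with 3 of 4 skeletal muscle (2 as bounds), 1 of 3 smooth muscle and 4 of 7 mesenchymal stromal markers lower. Blood markers were lower for 2 of 3 (1 as a bound) and epidermis markers for 1 of 3 (as a bound). None in those lists was higher. Cartilage markers were higher for 1 of 6 and lower for 0. Tendon and ligament markers were higher for 1 of 7, as a bound, and lower for 1. The endothelium list was split, and its sum was 3.25 in tissue and 4.76 in stem cells. The part of these markers was not tested. Col4a1 had 2.61 in tissue and 2.38 in stem cells, and 0.88 in transgenic and 0.57 in wild type ligament. Col4a2, its partner in the common trimer, had 2.74 in tissue and 1.51 in stem cells, and 0.30 in transgenic and 0.26 in wild type ligament. Both chains were higher in both cell samples than in both ligaments. Col4a2 was 2.35-fold higher in tissue than in stem cells (log2 1.23), while Col4a1 differed by 0.24. In tissue against wild type ligament they differed by 2.05 and 2.48, and in transgenic against wild type ligament by 0.31 and 0.05.

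Col4a5 and Col4a6, neighbours on the X chromosome that share a promoter region, diverged. Col4a5 had 1.46 in tissue and 0.35 in stem cells, and −1.66 in transgenic and −1.07 in wild type ligament. Col4a6 had −2.97 in tissue and −2.89 in stem cells, and −2.11 in transgenic and −1.96 in wild type ligament. Col4a5 was 2.16-fold higher in tissue than in stem cells and Col4a6 differed by −0.08. In tissue against wild type ligament Col4a5 was 5.77-fold higher and Col4a6 2.03-fold lower. The Col4a6 call was lost at −0.43 with quantile normalization. Col4a3, a chain of the kidney and lung basement membrane, was not well above background anywhere. Its partner Col4a4 had −4.41 in tissue, −5.68 in stem cells (not well above background), −1.29 in transgenic and −0.68 in wild type ligament. The probe used thus gave tissue at least 2.41-fold above stem cells, but a second probe measured on both had −3.68 in tissue and −3.01 in stem cells, the opposite order. In the ligaments that second probe was not well above background, so no direction for Col4a4 between cells and ligament holds for both probes.

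The hexagonal networks of type VIII and type X collagen were brighter in transgenic than in wild type ligament for 2 of 3 genes (background 6.1%). Col8a1, a chain of vessel walls and of the corneal membrane, was not well above background in tissue (−8.01) or stem cells (−8.09), and had −0.91 in transgenic and −2.55 in wild type ligament. Col8a2, its partner, had −0.12 in tissue and 0.69 in stem cells, and 0.21 in transgenic and −1.90 in wild type ligament. Transgenic ligament was above wild type ligament for both, 3.13-fold for Col8a1 and 4.33-fold for Col8a2. Normexp correction reduced Col8a1 to 0.90 on the log2 scale, and the mean over both Col8a2 probes was 0.99, since the other probe was not well above background in the ligaments. Endothelium markers, which mark vessels, summed to 31.2 in transgenic and 31.1 in wild type ligament. Of the smooth muscle markers, also found in vessel walls, 2 of 4 were higher in transgenic ligament, Acta2 with a level of 1.75 in transgenic and 0.39 in wild type ligament and Cnn1 with −1.15 in transgenic and −2.39 in wild type ligament. The part of these markers was not tested. Wild type ligament was at least 9.42-fold above stem cells for Col8a1 and 6.05-fold below them for Col8a2. Col10a1, the collagen of hypertrophic cartilage, had −2.95 in tissue and −3.40 in stem cells, and −1.91 in transgenic and −1.56 in wild type ligament, 3.57-fold higher in wild type ligament than in stem cells.

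FACIT collagens (fibril-associated, with interrupted helices) sit on the surface of fibrils. In tissue against stem cells 2 of 7 were lower (background 13.3%) and 0 higher (background 10.9%). Col12a1, the tendon and ligament member that binds type I fibrils, had 0.41 in tissue and 1.59 in stem cells, and 1.68 in transgenic and 1.87 in wild type ligament. The tissue was the lowest sample, 2.28-fold below stem cells and 2.75-fold below wild type ligament, while the other 3 samples lay within 0.27 of each other. Averaging the second Col12a1 probe, which was not well above background anywhere, brought the first of these to −0.56. Col16a1 had 3.52 in tissue and 5.07 in stem cells, and 1.73 in transgenic and 1.00 in wild type ligament. It was 2.93-fold lower in tissue than in stem cells, and the 2 other probes measured on both arrays gave −1.59 and −1.52 on the log2 scale against −1.55. Wild type ligament was 16.7-fold below stem cells.

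Col14a1, a tendon fibril coat, showed how much the probe matters. The probe in the helix coding run printed above had −3.77 in tissue and −2.80 in stem cells, and −2.77 in transgenic and −2.50 in wild type ligament. The second probe, at chr15:55352264-55352323 (plus strand), had −0.22 in transgenic and −0.24 in wild type ligament, and was not well above background in tissue (−7.92) or stem cells (−7.67). By the second probe wild type ligament was at least 46.6-fold above stem cells, and by the first 1.23-fold above. Both gave the same order, and both placed the ligaments within 0.27 of each other. Tissue was 2.41-fold lower than wild type ligament by the first probe (−0.49 on the log2 scale with quantile normalization) and at least 44.4-fold lower by the second.

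Col22a1, the collagen of the muscle-tendon junction, had the largest bound of any collagen gene. Its level was 3.38 in transgenic and 1.88 in wild type ligament, while tissue (−7.93) and stem cells (−7.97) were not well above background. Wild type ligament was at least 203-fold above stem cells and tissue at least 193-fold below wild type ligament. The second Col22a1 probe had 0.97 in transgenic and −1.07 in wild type ligament and was not well above background in the cells. Transgenic ligament was higher by 2.84-fold with the first probe and 4.11-fold with the second. Of the 4 skeletal muscle markers compared between the ligaments, 0 were higher (background 6.1%) and 1 lower (background 6.82%) in transgenic ligament (median −0.58). Tendon and ligament markers were higher for 6 of 7. Their part in the Col22a1 difference was not tested.

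Of type IX collagen, the cartilage FACIT, Col9a1 had −2.54 in tissue and −2.68 in stem cells, and −2.28 in transgenic and −2.81 in wild type ligament. Col9a2 had −3.07 in tissue and −3.60 in stem cells, and −2.13 in transgenic and −2.40 in wild type ligament. Col9a3 was well above background in stem cells alone, at −4.84. The only call among them was Col9a2, 2.31-fold higher in wild type ligament than in stem cells, a call lost at 0.49 on the log2 scale with quantile normalization. Between the ligaments, Col9a1 and Col9a2 did not share the 2-fold difference of Col2a1, differing by 0.53 and 0.27. Col20a1 stayed dim, between −4.65 and −3.51, and was not well above background in wild type ligament. Col19a1 was not well above background anywhere.

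Type VI collagen forms beaded filaments around cells, and its main chains separated the cell samples from the ligaments. Col6a1 had 6.06 in tissue and 6.23 in stem cells, and 2.31 in transgenic and 2.45 in wild type ligament. Col6a2 had 3.51 in tissue and 3.61 in stem cells, and −0.85 in transgenic and −0.47 in wild type ligament. Col6a3 had 3.80 in tissue and 3.26 in stem cells, and 1.19 in transgenic and 1.25 in wild type ligament. For all 3 chains both cell samples lay above both ligaments. Tissue was 12.2-fold, 15.8-fold and 5.85-fold above wild type ligament for Col6a1, Col6a2 and Col6a3. Wild type ligament was 13.8-fold, 17.0-fold and 4.03-fold below stem cells, and these directions held under every alternative run. The second Col6a2 probe gave 9.90-fold below. In tissue against stem cells and in transgenic against wild type ligament no type VI chain passed 2-fold. With the probe used for Col6a2, Col6a1 and Col6a2 kept within 0.37 log2 units of each other in the 4 comparisons. The second Col6a2 probe lay farther from Col6a1. It gave 0.70 in transgenic against wild type ligament, where Col6a1 gave −0.14, and 2.68 in tissue against wild type ligament, where Col6a1 gave 3.61. Col6a3 differed from Col6a1 by 1.78 between wild type ligament and stem cells. The chains Col6a4, Col6a5 and Col6a6 were not well above background on any array.

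The windows of 250 bases before the start of Col6a1, Col6a2 and Col6a3 are shown because all 3 chains were higher in both cell samples than in both ligaments. They come from RefSeq on GRCm38.p6, at chr10:76726045-76726294, chr10:76623631-76623880 and chr1:90843972-90844221, all on the minus strand, and read 5′ to 3′ in the direction of the gene. RefSeq lists 1, 2 and 1 starts for them, and the window printed for Col6a2 is that of 1 start. Capitals mark the Sp1 box GGGCGG, in either orientation.
Col6a1: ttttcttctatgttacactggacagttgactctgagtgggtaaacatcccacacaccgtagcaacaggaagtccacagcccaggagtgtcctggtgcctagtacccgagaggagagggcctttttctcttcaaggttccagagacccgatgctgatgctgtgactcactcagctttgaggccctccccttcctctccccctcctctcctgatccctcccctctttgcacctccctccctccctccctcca
Col6a2: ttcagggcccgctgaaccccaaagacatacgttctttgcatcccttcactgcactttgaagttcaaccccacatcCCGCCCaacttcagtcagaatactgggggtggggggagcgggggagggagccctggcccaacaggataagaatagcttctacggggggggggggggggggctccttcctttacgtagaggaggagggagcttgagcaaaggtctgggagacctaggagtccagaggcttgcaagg
Col6a3: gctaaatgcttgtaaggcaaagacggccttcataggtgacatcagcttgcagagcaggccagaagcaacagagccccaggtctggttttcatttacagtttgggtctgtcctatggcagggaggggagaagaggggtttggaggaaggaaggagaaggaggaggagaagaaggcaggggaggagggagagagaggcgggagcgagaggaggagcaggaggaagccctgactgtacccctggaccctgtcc

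On both strands, TATAAA was in 0 of these 3 windows, CCAAT in 0, and GGGCGG once, in Col6a2. Over all 32851 windows of this length, 12.4% held TATAAA, 33.9% CCAAT and 32.7% GGGCGG. Over the 38 windows of 35 collagen genes the shares were 13.2%, 34.2% and 57.9%. None of these motifs contains another. A match is only a match of letters. The median GC content was 59% in collagen windows and 52.4% in all windows.

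Col28a1, a small beaded-filament relative of type VI known mainly from nerve, had the largest difference between the cell samples. Its level was −5.24 in tissue and −0.29 in stem cells, and it was not well above background in transgenic (−6.19) or wild type ligament (−5.69). Tissue was 31.0-fold below stem cells (log2 −4.95), and wild type ligament at least 8.70-fold below them. The gene has 1 probe on 1 spot, and its tissue level lay near the faintest level well above background on that array (−5.71).

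Col7a1, the anchoring fibril collagen that fixes epidermis to dermis, had −3.14 in tissue and −1.11 in stem cells, and 0.31 in transgenic and −0.44 in wild type ligament. Tissue was the lowest sample, 4.10-fold below stem cells and 6.53-fold below wild type ligament. Col17a1, a transmembrane collagen of epidermal hemidesmosomes, was not well above background in tissue (−6.58), and had −5.17 in stem cells, 0.64 in transgenic and −0.47 in wild type ligament. It was 2.16-fold higher in transgenic than in wild type ligament (0.91 on the log2 scale after normexp correction) and 26.0-fold higher in wild type ligament than in stem cells. All 6 epidermis markers were higher in transgenic than in wild type ligament as well (background 6.1%), Krt5 having a level of 5.02 in transgenic and 2.93 in wild type ligament. All 6 were also higher in wild type ligament than in stem cells (background 33.7%), and their part in the Col17a1 differences was not tested. Of the other transmembrane collagens, Col23a1 had −2.93 in tissue and −2.02 in stem cells, and was not well above background in the ligaments. Wild type ligament was at least 2.62-fold below stem cells for it, a call lost after normexp correction (−0.38). Col13a1 and Col25a1 were not well above background on any array.

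The multiplexins release fragments that restrain vessel growth. Col18a1, the source of endostatin, had 1.18 in tissue and 0.91 in stem cells, and −0.21 in transgenic and −0.998 in wild type ligament. Its second probe had 1.41 in tissue and 0.49 in stem cells, and −0.80 in transgenic and −0.96 in wild type ligament, so both probes put the cells above the ligaments. Col15a1, of muscle and vessel basement membranes, had −3.61 in tissue and −5.34 in stem cells, and −1.71 in transgenic and −2.69 in wild type ligament. It was 3.30-fold higher in tissue than in stem cells, and a second probe measured on both gave 7.50-fold. Normexp correction reduced the first to 0.55 on the log2 scale. For tissue against wild type ligament the probes disagreed, at −0.93 for the helix probe printed above and at least 2.59-fold higher for the second. Emid2, the older name of Col26a1, had −1.86 in tissue and −2.20 in stem cells, and −1.73 in transgenic and −2.78 in wild type ligament with 1 probe. Its other probe had −1.81 in tissue and −2.22 in stem cells, and −1.75 in transgenic and −2.66 in wild type ligament.

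**Figure D3:**
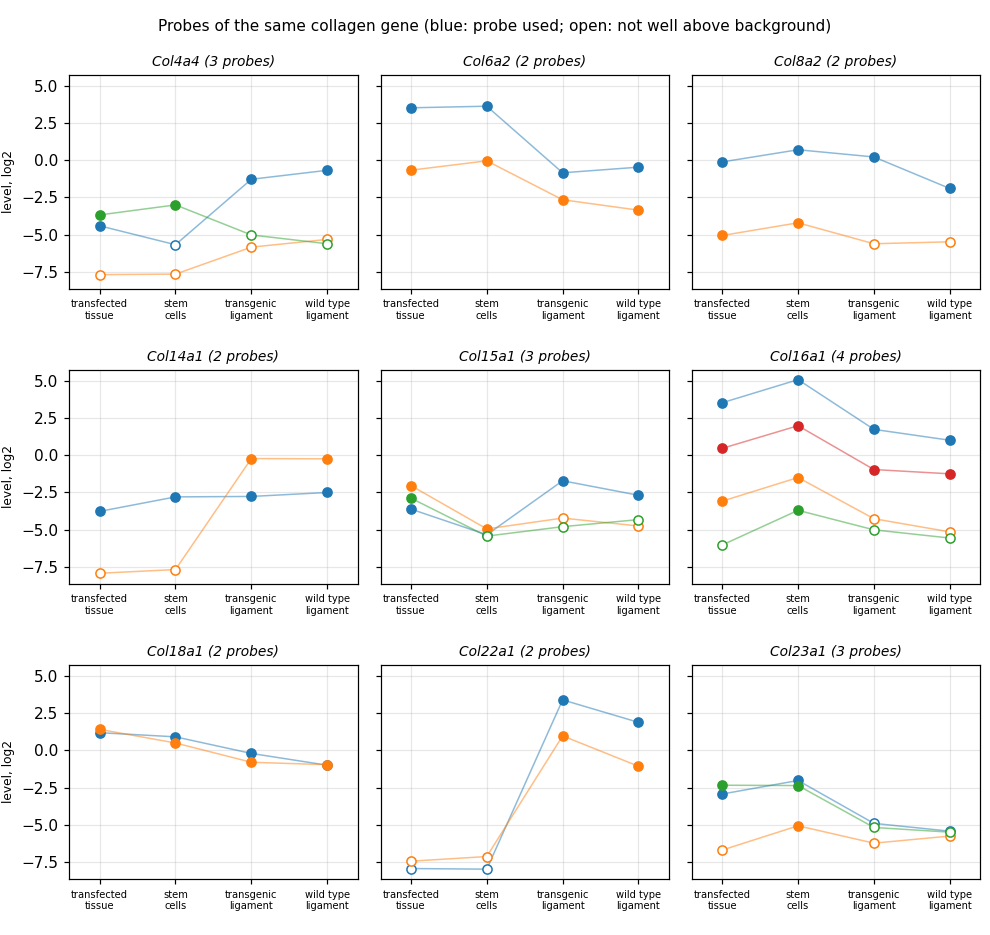
Level (log2, y axis) of every probe of 9 collagen genes in transfected tissue, stem cells, transgenic ligament and wild type ligament (x axis); each line is 1 probe, blue is the probe used and open points were not well above background. The probes of Col18a1 and Col22a1 follow the same course, as do those of Col16a1 apart from a probe filled in stem cells alone. Those of Col4a4, Col14a1 and Col15a1 do not.

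Of the 18 genes with several probes, those with at least 2 probes measured on both arrays numbered 7 in tissue against stem cells, 5 in transgenic against wild type ligament, 3 between wild type ligament and stem cells, and 3 in tissue against wild type ligament. Among them 0 had probes past 2-fold in opposite directions. Probes of a gene spread by more than 1 log2 unit for 1, 1, 0 and 1 of them, in that order of comparisons.

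**Figure D4:**
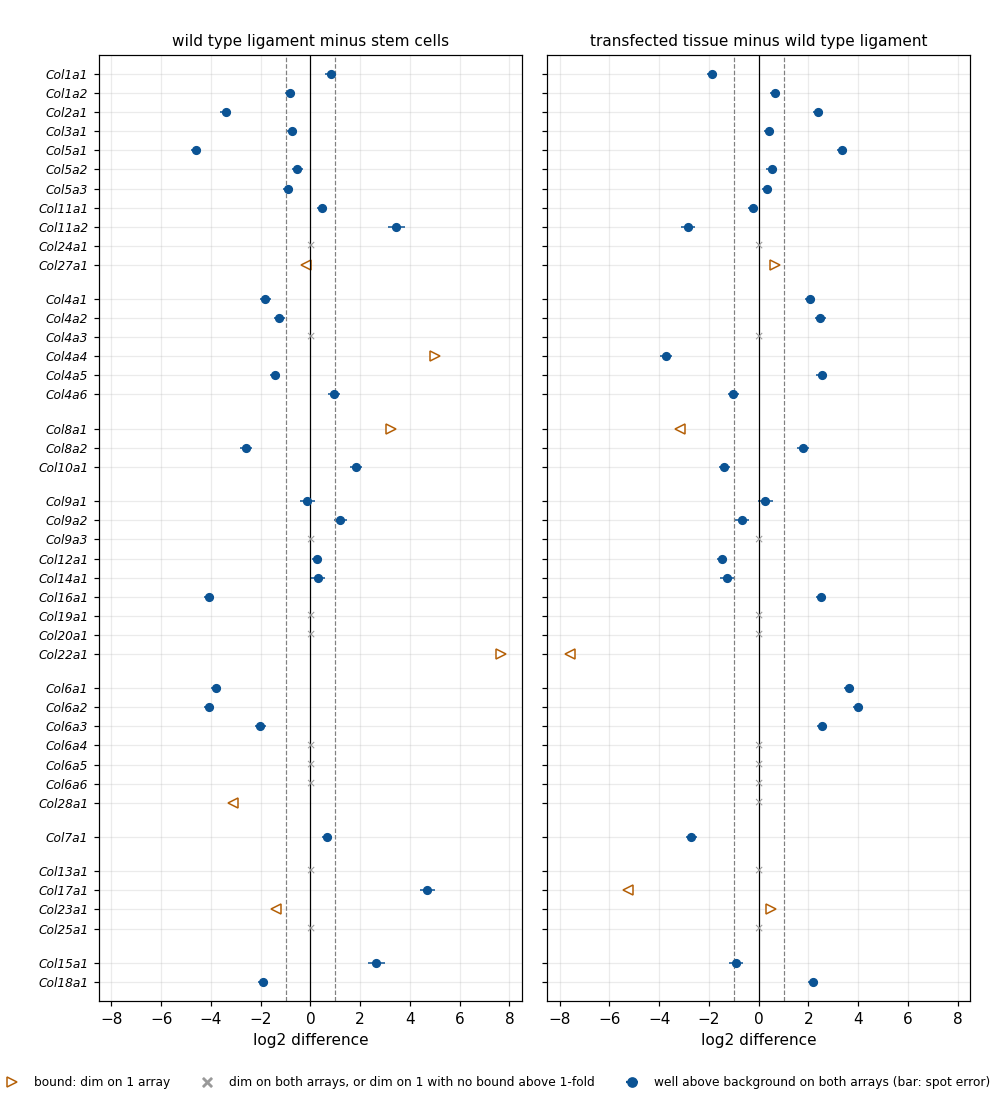
Log2 difference of each collagen gene in wild type ligament minus stem cells (left) and transfected tissue minus wild type ligament (right), with bars, triangles, crosses and dashed lines as in the plot of differences with A; both panels share the wild type ligament array. Col5a1, Col6a1, Col6a2, Col16a1 and Col2a1 lie lowest on the left and high on the right, and Col22a1 and Col17a1 lie at the other end.

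Chains must be hydroxylated, folded, secreted, trimmed and crosslinked before a fibril forms, and 51 genes of these steps and of collagen breakdown were on the array. In tissue against stem cells 4 of 47 compared were higher (background 10.9%) and 9 lower (background 13.3%). The lysyl oxidases Loxl4 and Lox, which crosslink fibrils, differed by −1.77 and −1.63. The prolyl hydroxylase subunits P4ha3 and P4ha2 differed by −1.75 and −1.18, the lysyl hydroxylase Plod1 by −1.57 and the folding factor Fkbp10 by −1.09. The hydroxylation and folding step as a whole had 4 of 18 lower and 0 higher, with a median of −0.66. The higher ones were Mep1a, a protease that can trim propeptides (3.15), Mmp14, a membrane collagenase (1.57), Adamts14, an N-propeptidase (1.14) and Mrc2, a collagen uptake receptor (1.05).

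In transgenic against wild type ligament 4 of 45 were higher (background 6.1%) and 1 lower (background 6.82%). Lox had 0.04 in transgenic and −2.01 in wild type ligament, 4.13-fold higher. Sec24d, of the vesicle coat that exports procollagen, differed by 1.35 and Crtap, of the prolyl 3-hydroxylation complex, by 1.03. Creb3l2, a transcription factor for procollagen export genes, was at least 2.42-fold higher. The neutrophil collagenase Mmp8 was 6.57-fold lower, and blood markers, 5 of 6 of them lower in transgenic ligament, moved with it. Their part in it was not tested.

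In wild type ligament against stem cells 8 of 46 were higher (background 33.7%) and 28 lower (background 21.9%). Of the hydroxylation and folding genes 14 of 17 were lower and 0 higher, with a median of −2.65, and of the crosslinking genes 4 of 5 were lower. Lox had −2.01 in wild type ligament and 4.16 in stem cells, a 72.0-fold lower level, and Crtap was 27.2-fold lower. The chaperone Serpinh1 was 5.48-fold lower. Of the breakdown genes 5 of 9 were higher and 3 lower. Ctsk, the osteoclast collagenase, was 541-fold higher, Fap 53.0-fold and Mmp13 41.4-fold. Of the marker lists in this comparison, 7 of 8 mesenchymal stromal markers were lower, while 5 of 5 bone and 6 of 6 blood markers were higher. Their part was not tested.

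In tissue against wild type ligament 28 of 47 were higher (background 20.6%) and 8 lower (background 35.6%), with 13 of 18 hydroxylation and folding genes higher and 0 lower. Loxl1 was 31.4-fold higher in tissue, Lox 23.3-fold and Crtap 16.3-fold, while Ctsk was 436-fold lower. Of the breakdown genes 3 of 9 were higher and 5 lower. The higher ones were Mmp14 (2.53 in tissue, −1.94 in wild type ligament), Mmp2 (4.41 and 0.21) and Mrc2 (1.77 and −2.33). Mesenchymal stromal markers were higher for 4 of 8 and lower for 1, bone markers were lower for 4 of 5 and blood markers for 6 of 6, and their part was not tested.

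**Figure D5:**
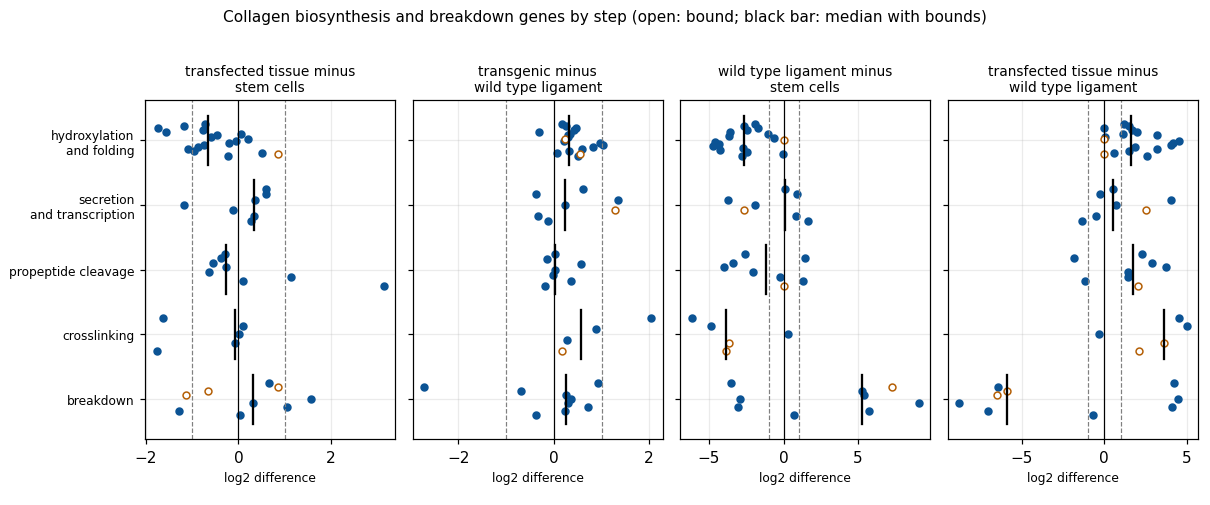
Log2 difference (x axis) of genes for collagen hydroxylation and folding, secretion, propeptide cleavage, crosslinking and breakdown (rows) in the 4 comparisons; open points are bounds, black bars are medians with bounds and dashed lines mark 2-fold. Hydroxylation and folding genes lie left of 0 in wild type ligament minus stem cells (median −2.65) and right of it in tissue minus wild type ligament (median 1.59).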

How the data were processed

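RNA of 4 mouse samples was measured on 1 Agilent array each. Per the file headers, the authors' scanner files hold background-subtracted, linear spot intensity (the processed signal) from Feature Extraction 10.7.1.1, with positions on mm9. The submitters' processing notes name version 9.5.1.1, and this was not settled. The other marks used, such as the well above background flag, are the deposited flags of the same software. Linear intensity is also in the deposited value table, with almost identical sorted values in its 4 columns, and its method is not given in the sources used here.

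Control and outlier spots were left out (1 collagen spot on each ligament array), log2 signal was centred on each array's 75th percentile, and spots of a probe were averaged. The alternatives were normexp with offset 50 (limma 3.58.1, R 4.3.3), quantile normalization, the percentile over probes well above background everywhere, the value table, the mean of all probes, stricter and no filtering, outlier spots kept and a 4-fold threshold. The calls were tested on simulated data. Named genes were all members, partner genes past 2-fold (up to 6 per direction) and up to 2 markers per list. Members and lists were chosen with earlier results of these data known. The number of arrays limits the precision, and all arrays lay on 1 slide.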

Additional observations from a re-analysis of the deposited data

Results flagged for a closer look

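Col2a1, the type II collagen chain of cartilage, differed in opposite directions past 2-fold in the comparisons with and without A. The log2 difference was −1.0421 in transfected tissue against stem cells and 2.1583 in transgenic against wild type ligament. The value in transfected tissue against stem cells fell under 2-fold with normexp (−0.99) and quantile normalization (−0.95). It did so also with the percentile over probes well above background on all arrays (−0.90) and in the deposited values (−0.88). Col2a1 was lower in the only tissue array and higher in the only transgenic ligament array. The difference between the comparisons was not tested, since each group had 1 array.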

How the results depend on the processing

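No paired analysis was possible because each group held 1 array, and leaving out a replicate or blocking on slide could not be run for the same reason and because all arrays lay on 1 slide. Of 61 collagen gene differences past 2-fold in the 4 comparisons, the number still past it in the same direction was 53 with normexp, 54 with quantile normalization, 58 with the percentile over probes well above background on all arrays, 54 in the value table and 57 with the mean of all probes. A 4-fold threshold, chosen as a stricter call, left in tissue against stem cells 0 higher and 2 lower, in transgenic against wild type ligament 2 higher, in wild type ligament against stem cells 6 higher and 8 lower, and in tissue against wild type ligament 10 higher and 6 lower.
Normexp correction gave 2 higher genes in tissue against stem cells, where 18.2% of all genes were called either way (24.2% in the main analysis). It gave 4 in transgenic against wild type ligament, where 5.79% of all genes were called either way (12.9% in the main analysis). Its medians were 0.14 in transgenic against wild type ligament, 0.081 between wild type ligament and stem cells, and −0.35 in tissue against wild type ligament. Quantile normalization gave medians of 0.10 in tissue against stem cells, −1.30 between wild type ligament and stem cells, and 1.098 in tissue against wild type ligament, where 7 genes were lower (55.7% of all genes called either way). The deposited values gave 0.11, −1.27 and 1.18 in these comparisons, and again 7 lower genes in the last (55.9% of all genes called either way). The percentile over probes well above background everywhere moved the last median to 0.60. Only genes well above background on both arrays gave 5 higher genes in wild type ligament against stem cells (57.9% of all such genes called either way). With no filter and no bound, 15 genes were higher in wild type ligament against stem cells (median 0.25, 73.8% of all genes called either way). With the same setting 19 were lower in tissue against wild type ligament (median −0.67, all genes 74.4%), and the median was 0.0024 in transgenic against wild type ligament. Differences of dim probes under this setting carry the offset between arrays. The cause of the other shifts was not tested. The faintest level well above background was −5.71 in tissue, −5.79 in stem cells, −3.90 in transgenic and −3.41 in wild type ligament, and a gene not well above background on an array has at best a bound there.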
